A study of Mus musculus with 4 samples.

Results

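The peak regions of 7 genes encoding ETS transcription factors (Ets1, Ets2, Etv6, Elf1, Elk3, Elf4 and Gabpa) were examined in ATAC-Seq of sorted mouse bone marrow hematopoietic stem cells (HSCs). A peak region was assigned to a gene if it overlapped the gene body or the 25 kb on either side, after overlapping peaks of the 4 libraries had been merged. This gave 365 of the 337776 regions found on the autosomes and X. A further 8 regions came from an interval of chromosome 9 beyond Ets1 (chr9:33150000-33350000, mm10). The 7 genes and the interval were chosen with earlier results from these same lists in view, the interval for a region present in both KO libraries and neither control library. The presence, ranks and covered lengths given here are therefore a description. An exact permutation test was run only on the covered length of each gene, and its p-values are not used here.

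The libraries were 2 control (labelled WT) and 2 Cpt1a-KO. Cpt1a encodes the enzyme that loads long-chain fatty acids onto carnitine for entry into mitochondria. Per the study's methods, the control mice carried Cpt1a fl/fl and the KO mice Cpt1a fl/fl with Vav1-Cre, which is active throughout the hematopoietic system, so the deletion is not restricted to HSCs. The mice were adults, and whether the controls carried Cre, the sex of the animals behind each library and any pooling were not given. The labels call the cells ltHSC, the study's text HSPCs. Nothing states that libraries of a genotype came from separate animals, so the spread between them may be technical. With 2 libraries against 2, the smallest two-sided exact permutation p is 0.333.

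Each list gave 240940 to 277594 summits with a fold, which compares the signal there with background in the same library. The lists covered 52.9 and 48.9 Mb in the control libraries and 42.6 and 44.4 Mb in the KO libraries, and the number of reads behind them is unknown. The Cpt1a locus (chr19:3322326-3385735) held 22 regions shared by at least 2 libraries. Of these, 12 were present in all 4 libraries, 0 only in KO and 2 only in control, beside 58.4, 3.47 and 6.05% of all shared regions. Peaks do not show whether the deleted exon was lost. All 10 HSC marker genes had a peak within 1 kb of an end of the gene in every library. Counted in each library, such a peak was present at 5 or 6 of 6 T cell markers and 4 of 6 B cell markers. It was also present at 3 or 4 of 5 erythroid, 4 or 5 of 6 granulocyte and monocyte, and 5 or 6 of 6 markers of tissues outside blood. The mere presence of a peak at a gene end in these lists thus did not separate cell types, and the share of other cells was not tested.

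ETS factors share a DNA-binding domain that recognises sites with a GGAA core, so several members can occupy the same site. Ets1 is the founding member, best known in lymphocytes, and Ets2 is its close relative. Etv6 is a repressor required by adult bone marrow HSCs and a frequent partner in leukemic gene fusions. Elf1 and Elf4 belong to one subfamily, and Elf4 is known for its effect on HSC quiescence. Elk3 is a ternary complex factor that acts with serum response factor. Gabpa encodes the DNA-binding subunit of GABP, an activator of housekeeping and mitochondrial genes that pairs with Gabpb1 or Gabpb2.

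The promoters shown first are those of Etv6, Elk3 and Elf4, whose start regions ranked higher in both KO libraries, and that of Gabpa, which holds a longer form of the ETS site. Each runs 5′ to 3′ from 250 bases before to 50 after a RefSeq start (GRCm38.p6), with GGAA and its reverse complement TTCC in capitals. The positions are chr6:134035450-134035749, plus strand, for Etv6, chr10:93311110-93311409, minus strand, for Elk3, chrX:48463083-48463382, minus strand, for the outer start of Elf4, and chr16:84834874-84835173, plus strand, for Gabpa.
Etv6: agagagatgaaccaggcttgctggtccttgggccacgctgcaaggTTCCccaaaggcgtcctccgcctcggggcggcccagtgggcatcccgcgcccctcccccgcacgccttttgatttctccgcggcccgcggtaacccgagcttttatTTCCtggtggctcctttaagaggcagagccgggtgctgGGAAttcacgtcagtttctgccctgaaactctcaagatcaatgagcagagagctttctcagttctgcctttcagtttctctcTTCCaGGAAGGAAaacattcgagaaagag
Elk3: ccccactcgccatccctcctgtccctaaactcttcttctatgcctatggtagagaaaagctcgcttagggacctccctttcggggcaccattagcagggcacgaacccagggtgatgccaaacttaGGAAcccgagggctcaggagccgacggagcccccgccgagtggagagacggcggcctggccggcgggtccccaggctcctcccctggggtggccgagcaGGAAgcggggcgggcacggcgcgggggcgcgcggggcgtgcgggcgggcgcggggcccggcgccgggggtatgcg
Elf4: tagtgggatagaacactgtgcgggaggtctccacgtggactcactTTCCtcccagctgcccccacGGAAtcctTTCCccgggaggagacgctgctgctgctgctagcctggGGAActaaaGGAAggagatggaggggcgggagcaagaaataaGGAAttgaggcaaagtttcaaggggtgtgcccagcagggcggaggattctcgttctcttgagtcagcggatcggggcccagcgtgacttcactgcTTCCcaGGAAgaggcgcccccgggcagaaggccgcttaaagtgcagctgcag
Gabpa: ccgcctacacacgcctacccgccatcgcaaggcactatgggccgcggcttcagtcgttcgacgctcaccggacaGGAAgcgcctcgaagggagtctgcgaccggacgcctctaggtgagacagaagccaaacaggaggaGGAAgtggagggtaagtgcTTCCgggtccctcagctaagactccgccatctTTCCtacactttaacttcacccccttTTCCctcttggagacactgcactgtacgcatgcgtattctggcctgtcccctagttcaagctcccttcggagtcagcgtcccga
The ETS core stood 6 times in the Etv6 promoter, 2 times in that of Elk3, 8 times in that of Elf4 and 5 times in that of Gabpa, both strands counted. Of all 32619 RefSeq promoters, 96% held the core and the median count was 3. The longer form CCGGAA, which contains the core, was present only in the Gabpa promoter among the 8 promoters matched, and in 15% of all promoters. GAGGAA, another form containing the core, stood in 3 of the 8 and in 28.2% of all promoters. A match describes the letters and not a bound site. The 8 promoters belong to 6 of the 7 genes, Elf1 and Elf4 having 2 each. All 8 lay in a region present in all 4 libraries, beside 47.4% of all promoters.

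Every start region of the 7 genes was open in both genotypes. No strand or promoter was given for Ets1, so the region over the lowest-numbered end of the gene (chr9:32636040-32636497) stands in for its start region. Its fold stood at percentiles 76.3 and 81.6 in control and 87.2 and 78.0 in KO, where 100 is the strongest interval of a library. The genotypes overlapped there. At Ets2 the start region (chr16:95701816-95702947) was stronger, at 96.9 and 93.7 in control and 94.7 and 94.6 in KO, again with overlap.

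The start region of Etv6 (chr6:134034878-134036319, shared with the neighbouring gene Gm46977) ranked at 89.2 and 89.6 in control and 92.2 and 90.7 in KO. Its percentiles were thus higher in both KO libraries, by a mean of 2.05, although the mean difference turned to −0.35 at a stricter −log10 q of 5 or more. The folds themselves overlapped, at 10.0 and 10.8 in control and 11.1 and 9.80 in KO. Ranked by −log10 p the genotypes overlapped too, at 95.36 and 95.43 in control and 96.17 and 95.04 in KO. At the outer start of Elf4 (chrX:48462529-48463496) the percentiles were 89.1 and 90.2 in control and 95.6 and 93.3 in KO, also without overlap. The inner Elf4 start (chrX:48453652-48454808) gave 92.1 and 91.6 in control and 94.1 and 92.0 in KO, and there the genotypes overlapped. At Elk3 the start region (chr10:93309041-93311419) stood at 79.7 and 81.8 in control and 85.9 and 91.6 in KO, a mean difference of 8.003. With 1 library left out the piece holding the start kept a positive difference, from 5.19 without KO replicate 2 to 10.8 without KO replicate 1.

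Elf1 had peaks at 2 starts. The first (chr14:79480736-79482115), shared with Wbp4, stood at 92.8 and 88.0 in control and 92.4 and 90.04 in KO. The second (chr14:79515193-79515989) stood at 88.2 and 93.3 in control and 96.5 and 91.5 in KO, and both overlapped. The start of Gabpa (chr16:84834460-84836121), shared with Atp5j, was among the strongest of the set, at 95.3 and 96.9 in control and 96.9 and 96.4 in KO. In sum 3 of the 9 start regions ranked higher in both KO libraries and 0 ranked lower. Among all regions present in all 4 libraries that touched a promoter, 27.9% ranked higher in both KO libraries and 10.4% lower.

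**Figure D1:**
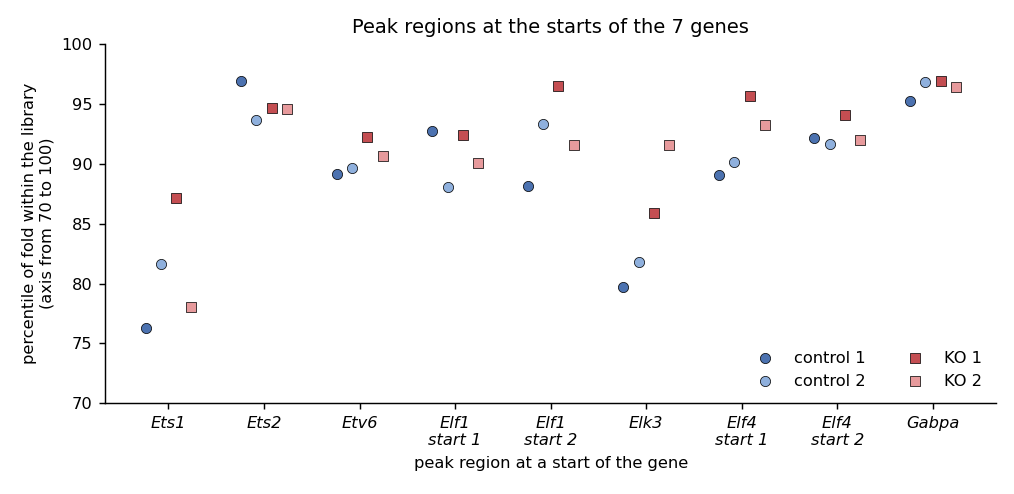
Percentile of fold (y axis, from 70 to 100) of the 9 peak regions at the starts of the 7 genes, with a point for each library, circles for control and squares for KO. For Elf4, start 1 is the outer and start 2 the inner start. For Ets1 the region is the one over the lowest-numbered end, its start being unknown. The KO points lie above both control points at Etv6, Elk3 and the first Elf4 start, and the genotypes overlap at the other 6.

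The strongest region of most of these genes lay away from the starts matched here. Ets1 is left out of that statement, since its start was not known. For each gene it was taken as the region with the highest lowest percentile over the libraries. At Ets2 it lay 7518 bp after the last base of the gene (chr16:95728567-95729464), with percentiles of 98.6 and 97.8 in control and 98.7 and 98.2 in KO. At Ets1 it lay inside the gene, 59.8 kb from the lowest-numbered end (chr9:32695605-32696499), at 98.2 and 96.0 in control and 98.6 and 97.9 in KO. In the Elf1 window it was the promoter region of Sugt1, a neighbouring gene (chr14:79587010-79588044), at 99.5 and 97.5 in control and 97.4 and 97.9 in KO. In the Elf4 window it lay 401 bp beyond the low-numbered end of the gene (chrX:48409622-48410648), at 96.4 and 93.9 in control and 95.5 and 95.6 in KO. None of these 4 separated the genotypes.

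A pair of genes, Etv6 and Elk3, had a strongest region whose ranks did not overlap, in opposite directions. The intragenic Etv6 region 29.5 kb from the start (chr6:134064774-134065544) stood at 96.2 and 95.4 in control and 94.3 and 94.9 in KO, lower in both KO libraries. The Elk3 region 49.6 kb from the start (chr10:93261107-93262010) stood at 91.4 and 91.8 in control and 93.0 and 92.1 in KO, higher in both. Its folds overlapped, at 11.3 and 12.1 in control and 11.7 and 10.7 in KO. Each mean difference was near 1 percentile, −1.18 at Etv6 and 0.92 at Elk3.

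The 7 windows together measured 970.722 kb. Of their 365 regions, 186 appeared in a single library (51.0%, beside 59.3% of all regions), and 179 were shared by at least 2. Of these 179, 94 were present in all 4 libraries (52.5%), beside 58.4% of all such regions. Etv6, the longest of the 7, held 34 of the 94, Elf1 19, Elk3 13, Elf4 11, Ets1 10, Gabpa 4 and Ets2 3. Per 100 kb of window this came to 12.0 regions at Etv6, 12.6 at Elf1, 11.4 at Elk3 and 10.8 at Elf4. The other genes held fewer, 5.83 at Ets1, 5.07 at Gabpa and 4.37 at Ets2, and the median over all coding genes was 5.94. Inside the genes lay 74 of the 94, 8 touched a promoter of the gene itself and 5 only that of another gene.

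Ets2 and Elf4 stood at opposite ends in how many of their peaks recurred. At Ets2, 17 of 20 regions appeared in a single library, and the 3 that were shared were present in all 4. At Elf4, on the X chromosome, 1 of 19 regions appeared in a single library. Over the whole X the share of single-library regions was 33.7%, beside 59.5% on the autosomes. At the 25 kb limit of the windows, 13 regions lay in the last 5 kb inside it, of which 3 were in all 4 libraries, and 18 lay in the first 5 kb outside, of which 5 were.

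Presence differed between the genotypes at few sites. Only in KO were 5 of the 179 shared regions, beside 3.47% of all shared regions, and only in control were 15, beside 6.05%. All 20 were weak, with folds from 1.67 to 3.88 and a median of 2.60. The 94 regions of all 4 libraries had folds from 2.07 to 22.6 with a median of 5.10. With 1 library left out the rule asks less by construction, since the remaining library alone stands for its genotype. The KO-only count then was 9 without control replicate 1 (2.73% of all member regions, beside 3.06% of all regions) and 13 without control replicate 2 (3.92%, beside 2.80%). It was 66 without KO replicate 1 (20.2%, beside 21.5%) and 46 without KO replicate 2 (14.8%, beside 21.2%). The control-only count was 57 (17.3%, beside 15.8%), 64 (19.3%, beside 20.6%), 30 (9.17%, beside 6.11%) and 29 (9.35%, beside 4.93%) in the same order. Among the 100000 strongest summits of each library, 60 member regions were shared by at least 2 libraries. Of these 1 was only in KO, at Ets1 (1.67%, beside 3.11% of all shared regions), and 4 were only in control (6.67%, beside 2.75%). Absence here means only that no summit passed the cut. On the full lists Ets1 had 0 KO-only regions. Ets2 and Elf1, with 1 and 2 of the 4 control-only regions, had 0 control-only regions on the full lists.

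The KO-only regions lay at Etv6, Elf1 and Elk3, all within the genes. The highest ranked was in Elk3, 7.74 kb from the start (chr10:93303265-93303582), at percentiles 36.6 and 51.1 of the KO lists. Those of Elf1 were at 2.86 and 21.5 (chr14:79503507-79503619) and at 13.7 and 24.8 (chr14:79557175-79557387). The Etv6 regions were at 25.8 and 0.97 (chr6:134157061-134157311) and at 4.72 and 0.24 (chr6:134185746-134185872). All 5 thus ranked below the middle of at least 1 KO list.

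The control-only regions numbered 7 at Etv6, 3 at Elk3, 2 at Ets1, 2 at Elf4 and 1 at Gabpa. The highest ranked at Elk3 (chr10:93273762-93273929) stood at 60.0 and 54.3 of the control lists, and another (chr10:93326786-93327095) lay 15627 bp upstream of the start at 20.04 and 54.3. The third Elk3 region (chr10:93275182-93275365) was at 3.39 and 17.5. The highest ranked at Etv6 lay 201 kb into the gene (chr6:134236425-134236754) at 43.6 and 57.1. The next 4 by their lower percentile were chr6:134045015-134045358 at 14.2 and 7.85, chr6:134205242-134205388 at 14.6 and 5.90, chr6:134042779-134042940 at 5.45 and 38.3, and chr6:134087750-134088075 at 19.8 and 5.16. At Ets1 the regions were chr9:32721102-32721303, at 30.02 and 49.3, and chr9:32747574-32747746, at 23.7 and 29.4. At Elf4 chrX:48425189-48425619 was at 44.1 and 18.9 and chrX:48428709-48428958 at 40.9 and 0.37, and at Gabpa chr16:84836254-84836374 was at 3.18 and 0.10.

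Peaks covered less of Etv6 and Elk3 in KO than in control. At Etv6 the covered length was 23.0 and 23.9 kb in the control libraries and 16.1 and 17.3 kb in the KO libraries, and the KO mean was 0.71 of the control mean. At Elk3 it was 10.2 and 8.88 kb in control and 6.13 and 7.67 kb in KO, a ratio of 0.72. Of all 19866 coding genes with a covered base, 8.95% had a ratio lower than that of Etv6 and 10.3% one lower than that of Elk3. The median ratio was 0.85, since the KO lists cover fewer bases in all.

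The other genes lay nearer to that median. Ets1 had 7.24 and 6.67 kb covered in control and 5.68 and 6.15 kb in KO, a ratio of 0.85. Elf1 had 11.0 and 11.5 kb in control and 9.24 and 10.9 kb in KO, a ratio of 0.89. Elf4 had 6.27 and 6.31 kb in control and 5.76 and 5.53 kb in KO, a ratio of 0.90. In these 3 the KO values were below both control values. The genotypes overlapped at Gabpa, with 3.39 and 3.17 kb in control and 2.39 and 3.27 kb in KO, and at Ets2, with 3.43 and 2.84 kb in control and 2.91 and 2.85 kb in KO.

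In all, 5 of the 7 genes were less covered in both KO libraries, beside 56.4% of all coding genes, and 0 were more covered, beside 4.28%. Covered length was then expressed per Mb of all bases the library covered, a scaling chosen after seeing the data. Etv6 gave 434 and 489 bp per Mb in control and 379 and 389 in KO, and Elk3 193 and 182 in control and 144 and 173 in KO. Both remained below the control libraries, with ratios of 0.83 and 0.85. The other 5 genes overlapped, so 2 of 7 were less covered on this scale, beside 17.9% of coding genes, and 0 more, beside 19.4%. Ets1 gave a ratio of 1.00, and Elf1 and Elf4 turned to 1.04 and 1.05.

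**Figure D2:**
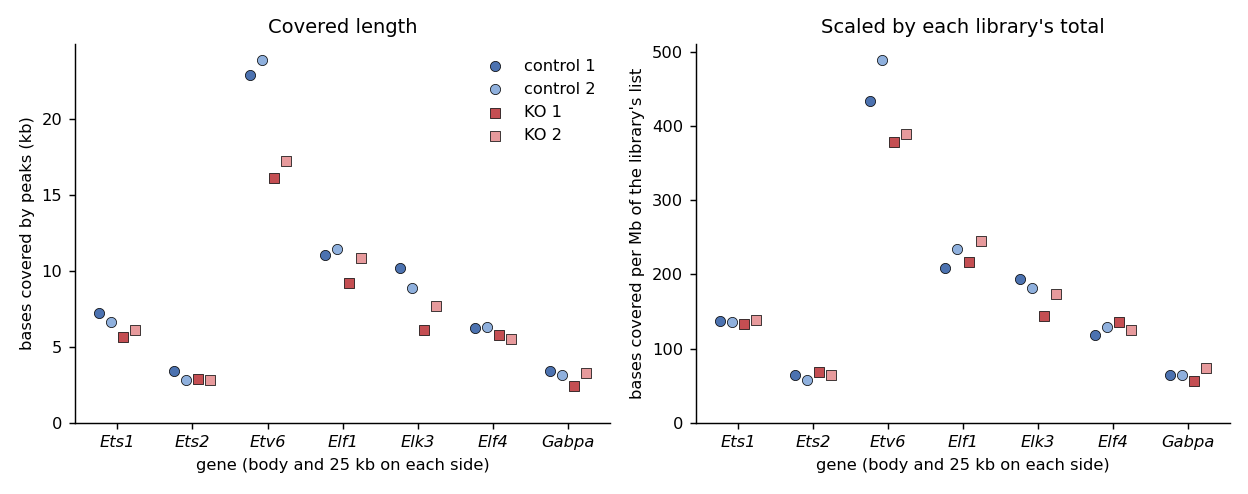
Bases covered by peaks in each gene and the 25 kb on either side, in kb (left) and per Mb of all bases covered in that library (right), with a point for each of the 4 libraries. At Etv6 and Elk3 the KO squares lie below the control circles in both plots, at Ets1, Elf1 and Elf4 only in the left plot, and at Ets2 and Gabpa the genotypes overlap in both.

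Etv6 and Elk3 also held most of the regions that ranked lower in KO. Of the 94 regions of all 4 libraries, 12 ranked higher in both KO libraries (12.8%, beside 22.2% of all 80271 such regions) and 26 ranked lower (27.7%, beside 15.1%), and 56 overlapped. Etv6 and Elk3 together held 18 of the 26 lower regions and 4 of the 12 higher ones, among 47 regions. The other 5 genes had 8 higher and 8 lower among their 47. This split of the genes was made after the values were seen, and ranks and covered length come from the same peak lists. With 1 library left out, which loosens the rule by construction, the higher counts were 32 without control replicate 1, 23 without control replicate 2, 31 without KO replicate 1 and 33 without KO replicate 2. These were 31.1, 23.5, 29.0 and 29.5%, beside 42.0, 32.7, 36.1 and 42.9% of all regions. The lower counts were 34, 47, 47 and 46 in the same order, or 33, 48.0, 43.9 and 41.1%, beside 24.3, 33, 35.5 and 28.0%.

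The excess of lower over higher regions was not seen under every way of choosing the peaks. With lists of equal length 16 of 88 member regions ranked higher (18.2%, beside 32% of all regions) and 14 lower (15.9%, beside 10.2%). At a −log10 q of 5 or more 2 of 42 ranked higher (4.76%, beside 9.44%) and 12 lower (28.6%, beside 28.2%). Among the 100000 strongest summits of each library, 10 of 44 member regions ranked higher (22.7%, beside 25.3%) and 9 ranked lower (20.5%, beside 14.2%). At Etv6 5 of the 10 regions left on that list were lower and 1 higher. At Elk3 1 of 5 was lower and 2 were higher.

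**Figure D3:**
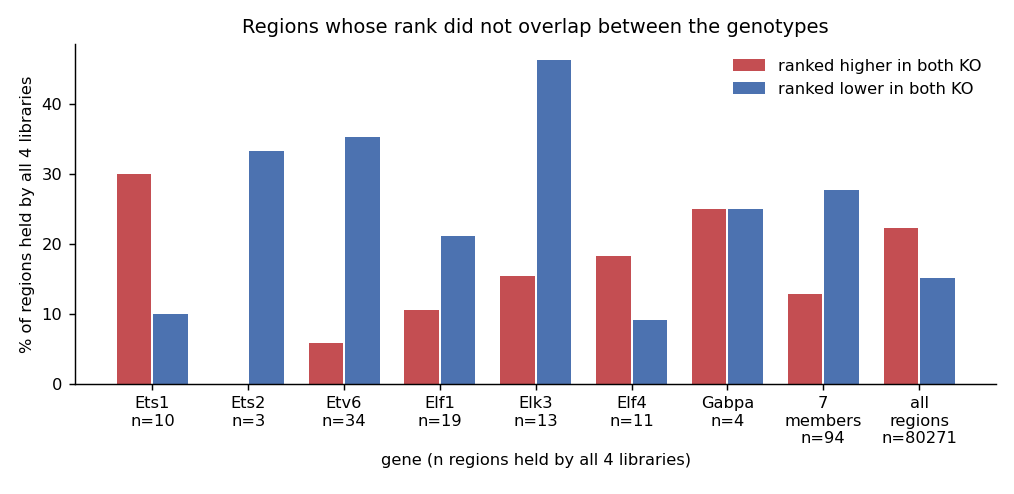
Share of the regions present in all 4 libraries (y axis, %) that ranked higher (red) or lower (blue) in both KO libraries than in both control libraries, for each gene, the 7 genes together and all regions. Lower regions reach 35.3% at Etv6 and 46.2% at Elk3, beside 15.1% of all regions, and the shares at Ets2 and Gabpa rest on 3 and 4 regions.

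At Etv6 the lower regions ran along the whole locus. The one outside the gene before its start lay 14338 bp away, inside the neighbouring gene Gm46977 (chr6:134020518-134021362). It was among the strongest, with percentiles of 93.0 and 92.1 in control and 86.3 and 84.2 in KO. Its folds were 12.4 and 12.3 in control and 8.09 and 7.28 in KO. Within the gene, the region 19.9 kb from the start (chr6:134055353-134055918) stood at 81.9 and 81.3 in control and 55.2 and 70.9 in KO. The region at 95.2 kb (chr6:134130733-134131135) stood at 86.6 and 77.4 in control and 59.7 and 67.7 in KO. The region at 208 kb (chr6:134243342-134243917), which touched a promoter of LOC118027456, stood at 76.9 and 66.3 in control and 55.5 and 39.6 in KO. Beyond the last base, by 6855 bp (chr6:134277013-134277392), the percentiles were 78.2 and 61.1 in control and 46.0 and 21.1 in KO. These 5 were singled out after their values were seen. With 1 library left out the lower count at Etv6 was 16 without control replicate 1, 18 without control replicate 2, 22 without KO replicate 1 and 23 without KO replicate 2. These were 43.2, 51.4, 55.0 and 53.5%, beside 24.3, 33, 35.5 and 28.0% of all regions. The higher counts were 6, 7, 10 and 11 in the same order, or 16.2, 20, 25 and 25.6%, beside 42.0, 32.7, 36.1 and 42.9%.

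Higher in both KO libraries at Etv6 were the start region and 1 intragenic region, 137 kb from the start (chr6:134171861-134172622), at 41.8 and 38.7 in control and 60.7 and 63.2 in KO. Away from promoters, 11 of 31 Etv6 regions ranked lower and 1 higher. Over all regions away from promoters, 16.0% ranked lower and 21.2% higher. The median KO minus control difference of the 31 was −3.37 percentiles, beside 0.41 over all regions away from promoters.

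**Figure D4:**
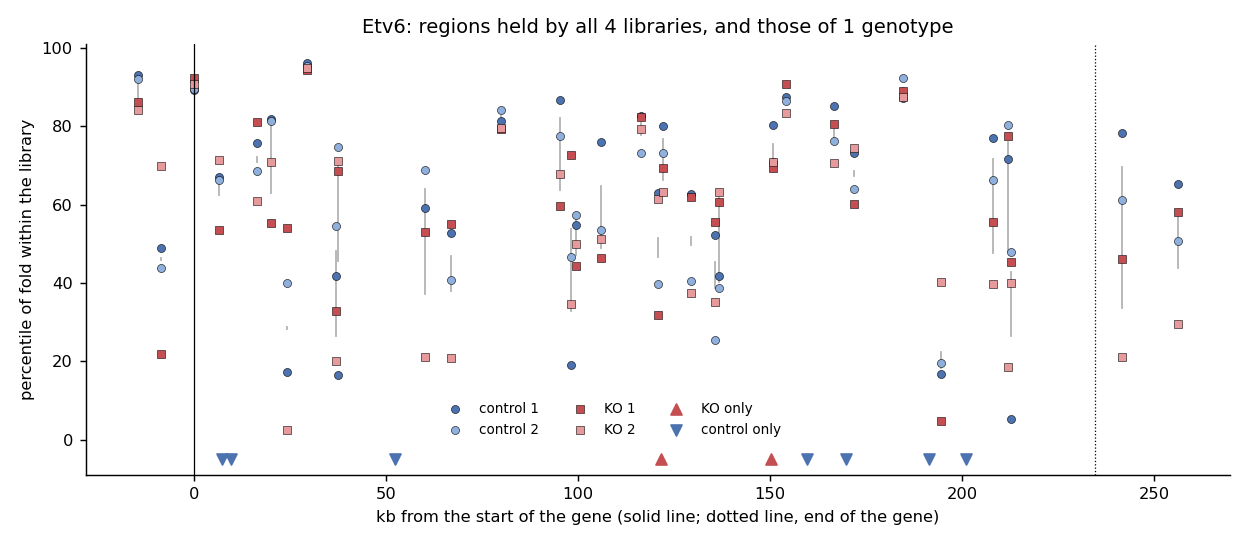
Percentile of fold of the 34 Etv6 regions present in all 4 libraries, against distance from the start of the gene in kb, with a point per library and a grey line joining the genotype means. Triangles below 0 mark the 2 regions only in KO (red) and the 7 only in control (blue). Of the 34, 12 lie lower and 2 higher in both KO libraries, and the lower ones are spread from before the start to beyond the end of the gene.

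At Elk3, 6 of the 10 regions away from promoters ranked lower and 1 higher, with a median difference of −6.78 percentiles. Over all regions away from promoters 16.0% ranked lower and 21.2% higher, with a median difference of 0.41. The region 12.7 kb into the gene (chr10:93298293-93298713) stood at 51.8 and 58.4 in control and 12.0 and 34.9 in KO. The region 16.3 kb into the gene (chr10:93294493-93295164) stood at 71.8 and 72.5 in control and 41.6 and 67.7 in KO. Another, 425 bp beyond the far end of the gene (chr10:93246304-93246990), stood at 77.1 and 73.2 in control and 65.5 and 71.4 in KO. It lies within the neighbouring gene Cdk17, as does a further lower region (chr10:93227934-93228347), at 54.7 and 55.9 in control and 21.9 and 45.7 in KO. In each the KO libraries differed more from each other than the control libraries did.

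At Ets1, 3 of the 10 regions of all 4 libraries ranked higher (30%, beside 22.2% of all such regions) and 1 lower (10%, beside 15.1%). The region 19729 bp before the lowest-numbered base (chr9:32615896-32616512) stood at 71.3 and 30.1 in control and 77.5 and 74.0 in KO. Inside the gene, chr9:32719775-32720929 stood at 78.4 and 69.6 in control and 79.8 and 79.5 in KO, and chr9:32685955-32686196 at 72.7 and 72.01 in control and 73.2 and 78.0 in KO. The lower one (chr9:32652151-32652524) stood at 56.5 and 65.7 in control and 36.6 and 41.1 in KO. In the higher regions the lower KO value stood close to the higher control value.

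The counts at the remaining genes stand beside 22.2% higher and 15.1% lower over all regions of all 4 libraries. Elf4 had 2 higher regions among 11 (18.2%) and 1 lower (9.09%). The higher ones were the outer start and an intragenic region (chrX:48429592-48430058, 67.1 and 73.2 in control and 85.0 and 76.7 in KO). Its single lower region (chrX:48433545-48434003) stood at 80.3 and 83.4 in control and 74.8 and 74.5 in KO. Elf1 had 2 higher (10.5%) and 4 lower (21.1%) regions among 19. The largest drop at Elf1 was at 18.3 kb from the first start (chr14:79499181-79499820), from 84.0 and 73.2 in control to 32.8 and 61.8 in KO. Gabpa had 1 of each among 4 regions, both in the flank before the gene and inside the neighbouring gene Jam2. The lower one (chr16:84813955-84815002) stood at 85.3 and 93.2 in control and 81.1 and 74.3 in KO, and the higher one (chr16:84817570-84817729) at 73.9 and 68.7 in control and 76.2 and 86.0 in KO. Ets2 had 1 lower region among 3, 6.11 kb into the gene (chr16:95708044-95708998), at 78.2 and 76.5 in control and 62.2 and 68.1 in KO.

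The chromosome 9 interval was sparse. Its 200 kb held 8 regions, 4 of them in a single library, and the 1 present in all 4 came to 0.50 per 100 kb. The region only in KO (chr9:33247033-33247219) was 187 bp wide, with folds of 4.89 and 6.11 and percentiles of 73.2 and 79.96 in the KO lists. It ranked above all 5 KO-only regions of the 7 genes, and it was the reason the interval was included. Both KO libraries still held it at a −log10 q of 5 or more, with lists of equal length and with the 100000 strongest summits. These settings only remove summits, so they say nothing further on its absence from control. When a library had to cover 0.5 or more of the region's length it no longer counted as only in KO, because 1 KO library covers less than that. Leaving out control replicate 2 gave 2 KO-only regions in the interval and leaving out KO replicate 1 gave 3. Leaving out control replicate 2 also gave 3 control-only regions there, and leaving out control replicate 1 gave 2 present in all libraries.

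The nearest coding gene to that region was Ets1, with its highest-numbered base (chr9:32636241-32757820) 489.213 kb away, and the interval therefore lay past that end of the gene. The noncoding gene Gm32171 began 7.24 kb from the region. The region present in all 4 libraries (chr9:33260091-33260438) lay inside Gm32171 and stood at 88.7 and 79.3 in control and 81.4 and 84.5 in KO. A region only in control (chr9:33241020-33241202) was found nearby, at percentiles 56.5 and 55.9 of the control lists. A last shared region (chr9:33169189-33169363) was in control replicate 2 at 63.0 and in the KO libraries at 70.7 and 45.7.

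**Figure D5:**
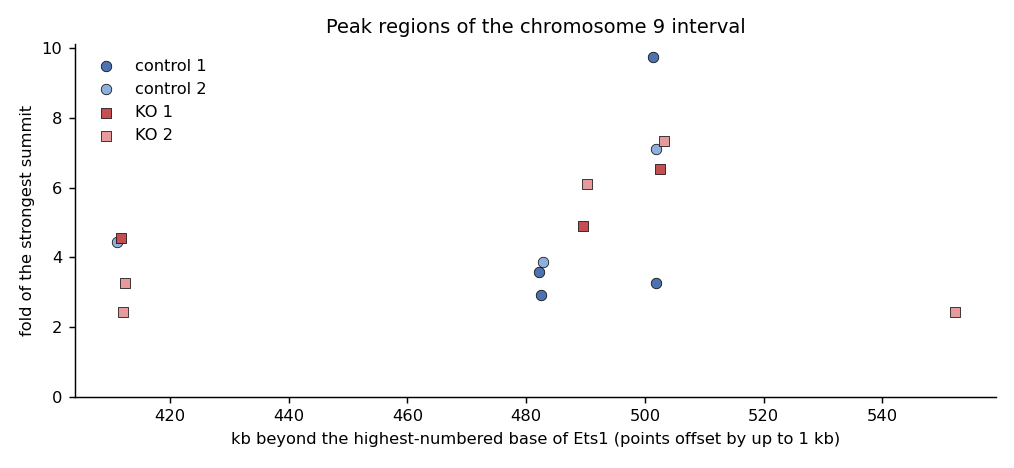
Fold of the strongest summit (y axis) of each region of the chromosome 9 interval in each library that held it, against distance beyond the highest-numbered base of Ets1 in kb. Near 489 kb only the 2 KO squares appear, at 4.89 and 6.11, and near 502 kb all 4 libraries have a peak.

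The 20 other ETS genes of the mouse, with the same windows, gave 172 regions present in all 4 libraries. This was 59.3% of those shared by at least 2, beside 58.4% of all such regions. Of the 172, 45 ranked higher in both KO libraries (26.2%, beside 22.2% of all regions present in all 4) and 23 lower (13.4%, beside 15.1%). Covered length was less in both KO libraries at 14 of the 20, beside 56.4% of all coding genes, and more at 0, beside 4.28%. Erg had the most regions of all 4 libraries, 29, of which 4 ranked higher (13.8%) and 6 lower (20.7%). Fli1, the neighbour of Ets1 on chromosome 9, had 18, of which 8 ranked higher (44.4%) and 1 lower (5.56%). No gene of the list was without a region of all 4 libraries, and Ehf had the fewest of these, 1 among its 15 regions. The GABP partner Gabpb1 had 12 such regions, 1 higher (8.33%) and 4 lower (33.3%), and Gabpb2 had 6, 3 higher (50%) and 0 lower. The difference between the 7 genes and the other 20 was not tested.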

How the data were processed

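ATAC-Seq libraries of sorted bone marrow HSCs (2 control, 2 KO) were used as 4 deposited peak lists. The authors called peaks per library with no pooling of replicates. The submitters' processing notes name Bowtie2, MACS2 and mm10, and versions were not given in the sources used here. The deposited lists give for each summit a fold (a ratio of signal to local background), a −log10 p, a −log10 q, a display score and a summit position. The study's own test of read counts within peaks needs reads, which these lists do not hold, so depth and its precision are unknown and no count test was run. Intervals of the autosomes and X were merged at 1 bp overlap with pandas 2.3.3 and numpy 2.4.6 under Python 3.11.15. Each interval took its strongest summit and was ranked by fold within its library, and a merged region took its highest percentile. The code was tested on simulated data. A region ranked higher or lower if the percentiles of the genotypes did not overlap. Gene positions and promoters were RefSeq GRCm38.p6, and the gene table gives no strand, which came from the promoters (none for Ets1).

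The members, the lists and the alternatives were chosen with earlier results of these data known. Named were the 7 genes, Cpt1a, each gene's start and strongest regions, regions of a single genotype (at most 5 per gene and genotype), regions of the chromosome 9 interval in at least 2 libraries, and the other ETS genes with the most or no peaks. Regions named for their change in rank were picked after their values were seen. Alternatives were summits with −log10 q of at least 5, lists of equal length (240881 summits), the 100000 strongest summits, an overlap of 0.5 or more of a region's length, a flank of 5 kb or none, rank by −log10 p, and leaving out each library.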

Additional observations from a re-analysis of the deposited data

How the results depend on the processing

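No paired analysis was possible because presence, ranks and covered lengths came from no fitted test, and nothing ties libraries of the same replicate number. Keeping summits with −log10 q of at least 5 gave 42 regions in all 4 libraries, 2 ranked higher and 12 lower. It gave 0 only in KO (beside 0.807% of all shared regions) and 10 only in control (14.9%, beside 7.02%). The interval then held 0 control-only regions. On that list 28.2% of all regions ranked lower and 9.44% higher. The 100000 strongest summits gave 44 in all 4 libraries, 10 ranked higher (beside 25.3% of all regions) and 9 lower (beside 14.2%). They gave 1 only in KO (beside 3.11% of all shared regions) and 4 only in control (beside 2.75%), with 0 control-only in the interval. With either cut, a region counted as absent from a library may still have had a peak on its full list. Lists of equal length gave 8 only in control (5.1%, beside 4.75% of all shared regions). With them 16 ranked higher (18.2%, beside 32% of all regions) and 14 lower (15.9%, beside 10.2%). An overlap of 0.5 or more gave 53 in all 4 and 24 only in control (16.2%, beside 11.3% of all shared regions), 16 of the 24 at Etv6. Of the 53, 9 ranked higher (17%, beside 24.6% of all regions) and 9 lower (17%, beside 13.7%). The same overlap rule gave 0 in all 4 and 0 only in KO in the interval. Scaling by the total covered left 2 genes less covered. The cause of these changes was not tested beyond fewer peaks or a stricter overlap being kept.

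Leaving out each library in turn gave 98 to 112 regions in all libraries, 9 to 66 only in KO, 29 to 64 only in control, 23 to 33 ranked higher and 34 to 47 lower. It gave 5 to 7 genes less covered and 0 to 1 more covered, and in the interval 1 to 2 regions in all libraries, 1 to 3 only in KO and 1 to 3 only in control. Covered ratios turned above 1 at Elf4 (1.04 with the 100000 strongest summits, 1.05 when scaled), Elf1 (1.04 when scaled), Ets2 (1.08 when scaled, 1.01 without control replicate 1) and Gabpa (1.01 when scaled). With the stricter q the start region differences turned negative at Etv6 (−0.35), Ets1 (−2.34), the first Elf1 start (−4.20), the inner Elf4 start (−1.75) and Gabpa (−0.50). Without 1 library the sign also turned at Ets1 (−0.91 without KO replicate 1), the first Elf1 start (−1.52 without control replicate 2, −0.35 without KO replicate 1), Gabpa (−0.21 without control replicate 1) and Ets2 (0.94 without control replicate 1). No alternative turned the covered ratio of Etv6 or Elk3. Unknown depth limits every statement on absence, since a weak peak can be missed in a list.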
